A study of Mus musculus with 6 samples.

Results

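The genes described here carry peptides into the endoplasmic reticulum (ER) and load them onto MHC class I molecules. They were chosen by symbol as the subunits of the peptide-loading complex, its trimming peptidase and the class I transactivator Nlrc5, and all 9 were found among the 17030 genes of the deposited expression table. Cells were SCC7, a mouse squamous carcinoma line, either untreated (control, n = 3) or given radiotherapy at 9 Gy (irradiated, n = 3). Both groups carry the same time label, day 0, so the time from irradiation to harvest is not known. No genotype change, transgene or drug is named for either group, and it is not stated whether the 3 samples of a group were grown separately. Every p below therefore reflects sample-to-sample spread that could be technical.

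Peptides cut by the proteasome in the cytosol enter the ER through TAP, a heterodimer of TAP1 and TAP2. Tapasin, encoded by Tapbp, tethers an empty class I molecule to TAP, and the lectin chaperones calnexin and calreticulin and the oxidoreductase ERp57, encoded by Canx, Calr and Pdia3, fold the class I molecule and hold it in the complex. ERAP1 trims the amino ends of peptides that are too long, and TAPBPR, encoded by Tapbpl, edits peptides outside the complex. NLRC5 is recruited by DNA-bound factors to the promoters of class I chains, B2m, Tap1 and Psmb9, and many of these genes are known targets of interferon. Calreticulin, calnexin and ERp57 serve glycoproteins at large and belong to the general ER folding machinery.

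Of the 9 genes, 3 lie in the class II region and extended MHC of chromosome 17 (RefSeq annotation, GRCm38.p6). Tap1 (NCBI gene 21354) spans chr17:34187556-34197225 and Tap2 (21355) chr17:34204479-34216321, with the immunoproteasome gene Psmb8 between them. Tapbp (21356) spans chr17:33919478-33929290. The other genes are Tapbpl (213233, chr6:125223927-125231860), Erap1 (80898, chr13:74639573-74693205), Nlrc5 (434341, chr8:94434335-94527272), Pdia3 (14827, chr2:121413902-121438687), Calr (12317, chr8:84842088-84846931) and Canx (12330, chr11:50293957-50325673). Tap1 and the immunoproteasome gene Psmb9 point away from each other and are separated by 225 bases, which are shown because both genes were higher after irradiation. In the sequence, chr17:34187331-34187555 on the plus strand, capitals mark a CCAAT match at -222 to -218 and a TGACG match at -86 to -82, counted back from the base before the Tap1 start.
Tap1-Psmb9: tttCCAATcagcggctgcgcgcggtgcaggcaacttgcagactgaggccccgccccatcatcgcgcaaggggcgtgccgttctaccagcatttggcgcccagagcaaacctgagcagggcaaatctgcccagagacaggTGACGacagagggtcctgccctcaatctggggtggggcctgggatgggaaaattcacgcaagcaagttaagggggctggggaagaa
Upstream of the chaperone genes Calr and Canx, the 250-base windows each held a match to the ER stress element, a site known from chaperone promoters that was searched as CCAAT, 9 bases of any kind and CCACG. These are shown because the chaperones did not pass the test below. The Calr match lies at chr8:84847075-84847093 (-162 to -144) and the Canx match at chr11:50325800-50325818 (-145 to -127), and both genes lie on the minus strand. Capitals mark the fixed letters, and each match holds a CCAAT or its reverse complement.
Calr: CGTGGtcgaccctcATTGG
Canx: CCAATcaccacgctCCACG

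Both strands of the 250 bases before each start were searched for 7 motifs in the RefSeq promoter table (GRCm38.p6), which had entries for 6 of the 9 genes. Tap2, Tapbpl and Nlrc5 had none. The ER stress element was found in 0.113% of all 32851 windows and in Calr and Canx among these 6. CCAAT was found in 33.8% of all windows and in those of Tap1, Tapbp, Pdia3, Calr and Canx. TGACG, the core of the cyclic AMP response element, was found in 17.8% of all windows and in those of Tap1, Pdia3 and Canx. The GC box GGGCGG, in 32.7% of all windows, was found in Tap1, Tapbp, Pdia3, Calr and Canx. An interferon response element searched as GAAA, 2 bases and GAAA (2.98% of all windows), a gamma-activated site searched as TTC, 3 bases and GAA (7.02%) and a kappaB site searched as GGGA, 2 bases and TTCC (1.21%) were found in none of the 6 windows, which says only that these exact letters are not in these 250 bases. All 6 windows overlap annotated genes, in part or in full. The stretch printed for Tap1 lies between genes, the Calr match lies outside annotated genes, and the Canx match lies within the predicted gene Gm46280. The windows of Tapbp and Pdia3 overlap other genes up to the start, and that of Erap1 lies within the annotated span of Erap1 itself, so none of these is printed. The bases before the annotated span of Erap1 were thus not searched.

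Values are FPKM, fragments scaled to transcript length and to the library's total, so that levels of different genes can be set side by side. Libraries were unlike in spread: on the log2(FPKM + 1) scale the typical gene had an SD of 0.30 in controls and 0.08 in irradiated cells (medians over genes), and FPKM sums were 693961 to 982553 and 652691 to 663489. The number of reads is unknown. The line's label was checked against marker genes. Of 14 squamous epithelial markers, 9 stayed under 1 FPKM in every library, among them Krt5, Krt14, Cdh1 and Epcam, and the list's summed level, mostly Krt8 and Krt18, was 716 to 1904 FPKM in controls and 502 to 511 in irradiated cells. Markers of leukocytes, which express class I genes highly, summed to 3.15 to 5.49 FPKM in controls and 7.69 to 9.44 in irradiated cells, with 7 of 9 matched markers under 1 FPKM throughout and the pan-leukocyte gene Ptprc at 0 in all controls and at most 0.03 in irradiated cells. Fibroblast markers summed to 111 to 212 and 168 to 193 FPKM, with Thy1 and Lum under 1 FPKM, and endothelial markers to at most 0.63. Of the 11 markers tested in the fit described next, limma called 4, where 12% of all tested genes were called. The fibroblast markers Col1a1 (18.9 to 45.9 FPKM, limma adjusted p = 0.00474) and Dcn (1.12 to 5.32 FPKM, 0.0086) were called higher. So was the leukocyte marker Lyz2 (0.533 to 3.09 FPKM, 0.00745), and Krt18 (401 to 105 FPKM, 0.0261) was called lower. Lyz2 was below 1 FPKM in all controls and Dcn in control 1 (0.94 FPKM), so both entered the test only with the irradiated libraries. The part of these cell types in the results was not tested.

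The transporter subunits, tapasin, its relative Tapbpl, the peptidase Erap1 and the transactivator Nlrc5 were higher in irradiated cells, and the chaperones Calr, Pdia3 and Canx did not pass the test. Differences between these roles were not tested, and the fitted change of Canx (0.47) was close to those of Tap2 (0.50) and Tapbpl (0.56). A gene was called where the adjusted p of limma, fitted on log2(FPKM + 1) to the 11103 genes that reached 1 FPKM in 3 or more samples, was below 0.05. All 9 reached this level, and in every control as well. Of the 9, 6 were called higher and 0 lower by limma, and the same numbers had an unadjusted p below 0.05, as did 38.3% of all genes tested in either direction. The median log2 fold change of the 9 was 0.56. Of all genes tested, 9.24% were called higher and 2.77% lower (12% in all), and the median was 0.17. In the same 6 genes every irradiated library lay above every control, which held for 31.8% of all tested genes (45.4% were apart in either direction and 13.7% lower), and the groups overlapped in Calr, Pdia3 and Canx. In RNA from a whole culture, more expressing cells and more RNA per cell cannot be told apart.

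**Figure D1:**
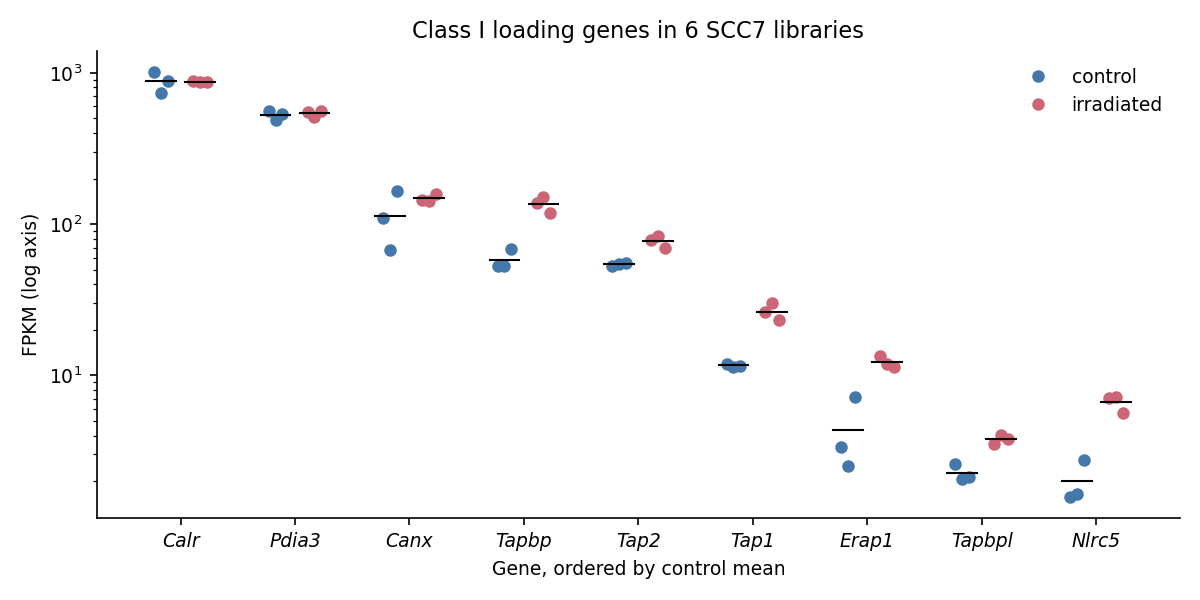
FPKM (log axis) of the 9 genes in the 3 control (blue) and 3 irradiated (red) libraries, libraries 1 to 3 from left to right in each cluster, with a black bar at the group mean. The groups do not overlap for Tapbp, Tap2, Tap1, Erap1, Tapbpl and Nlrc5, and they overlap for Calr, Pdia3 and Canx.

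Ordered by level, the controls ran from Calr (mean 880 FPKM) and Pdia3 (528) through Canx (114), Tapbp (58.2) and Tap2 (54.2) to Tap1 (11.6), Erap1 (4.35), Tapbpl (2.27) and Nlrc5 (2.00). Neighbours whose control values overlapped were Canx with Tapbp, Tapbp with Tap2, Erap1 with Tapbpl, and Tapbpl with Nlrc5. In irradiated cells the order was Calr (872), Pdia3 (539), Canx (148), Tapbp (136), Tap2 (77.2), Tap1 (26.4), Erap1 (12.2), Nlrc5 (6.66) and Tapbpl (3.80), and the values of Canx and Tapbp overlapped. Among the tested genes Calr was the 162nd most abundant in controls, while Tap1 moved from rank 5939 to rank 3653 and Nlrc5 from 9948 to 8191.

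Tap1, which encodes the first transporter subunit, stood at 11.9, 11.4 and 11.6 FPKM in controls 1 to 3 and at 26.1, 30.0 and 23.2 FPKM in irradiated libraries 1 to 3. The controls lay close together, and even the lowest irradiated library was well above them. The means of 11.6 ± 0.257 and 26.4 ± 3.39 FPKM (SD, n = 3 each) differed 2.27-fold, or by 1.11 on the log2 scale (SE 0.14, limma adjusted p = 0.00586). Of the 9 genes, Tap1 kept its call in the most alternatives, 12 of 14, and lost it without irradiated library 1 or 2 (limma adjusted p = 0.0783 and 0.0761).

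Tap2, the other subunit of the transporter, measured 52.6, 54.2 and 55.7 FPKM in controls and 77.9, 83.8 and 69.9 FPKM in irradiated libraries. The groups did not overlap, and the means differed 1.43-fold. The log2 fold change was 0.50 (SE 0.12), just inside the threshold (limma adjusted p = 0.0469). The call ended in 11 of 14 alternatives, with a log2 fold change of 0.26 under trimmed-mean scaling (limma adjusted p = 0.195) and adjusted p up to 0.219 over the alternatives. It was kept without control 3 (adjusted p = 0.00283), after quantile normalization (0.0298) and without trend and robust options (0.0467).

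Because both subunits were read in the same library, their ratio does not change when a library is multiplied by 1 factor, though it does under quantile normalization. Tap1 stood at 0.226, 0.210 and 0.208 of the Tap2 level in controls and at 0.334, 0.358 and 0.332 in irradiated libraries. Tap2 was thus the more abundant transcript in every library, and the gap was narrower in irradiated cells, where the ratio was 1.59-fold that of controls (difference 0.67 on the log2 scale, SD 0.07 in controls and 0.06 in irradiated cells). With 3 against 3 the two-sided exact permutation test cannot go below p = 0.1, which it reached here (adjusted p = 0.3 over 6 pairs). After quantile normalization the log2 difference was 0.39. Ratios between genes also depend on the transcript lengths that the authors assigned, while the change of a ratio does not.

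Tapbp, which encodes tapasin, measured 52.9, 53.0 and 68.8 FPKM in controls and 139, 152 and 118 FPKM in irradiated libraries. Control 3 was the highest control and still lay far below irradiated library 3. The means were 58.2 ± 9.14 and 136 ± 17.2 FPKM, which differed by 1.21 on the log2 scale (SE 0.17, limma adjusted p = 0.00905). The call was lost without control 1 (0.0663) and without irradiated library 1, 2 or 3 (limma adjusted p = 0.103, 0.106 and 0.0567). With the sample number as a block it was lost as well (0.0505). Tapbp was 4.45, 4.65 and 5.93 times the Tap1 level in controls and 5.33, 5.07 and 5.07 times in irradiated libraries, with overlapping groups (log2 difference 0.05, and 0.35 after quantile normalization, exact permutation p = 0.8).

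Tapbpl, which encodes the peptide editor TAPBPR, was expressed far below tapasin, at 2.60, 2.06 and 2.14 FPKM in controls and 3.54, 4.05 and 3.82 FPKM in irradiated libraries. Its log2 fold change was 0.56 (SE 0.14, limma adjusted p = 0.0449). At this low level the pseudocount of 1 FPKM matters, and the log2 fold change was 0.73 with a pseudocount of 0.1, where the call was lost (limma adjusted p = 0.0528). It was 0.11 after quantile normalization (adjusted p = 0.602) and 0.38 after trimmed-mean scaling (0.0981), and the call stood in 3 of the 13 alternatives that tested the gene. The Tapbp to Tapbpl ratio was 20.4, 25.7 and 32.1 in controls and 39.2, 37.5 and 30.8 in irradiated libraries, so the groups overlapped (log2 difference 0.48, exact permutation p = 0.2), and the log2 difference was 1.20 after quantile normalization.

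Erap1, the ER aminopeptidase, had the largest log2 fold change of the 9 genes with all libraries, no further scaling and a pseudocount of 1 FPKM. With a pseudocount of 0.1 it was 1.61 and that of Nlrc5 was 1.72, and after quantile normalization it was 1.06 and that of Tapbp 1.35. The gene measured 3.36, 2.50 and 7.19 FPKM in controls and 13.4, 11.8 and 11.4 FPKM in irradiated libraries. Control 3 was the highest control and lay nearer the irradiated group. The log2 fold change was 1.40 (SE 0.31, limma adjusted p = 0.0385), and it was 1.76 without control 3, where the gene was called, and 1.14 without control 2 (limma adjusted p = 0.0735). The call also ended without control 1 (0.154), without irradiated library 1, 2 or 3 (0.195, 0.196 and 0.164) and with no filter (0.0533). With the sample number as a block it was lost as well (limma adjusted p = 0.0732).

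Nlrc5, the transactivator, measured 1.58, 1.65 and 2.77 FPKM in controls and 7.12, 7.19 and 5.67 FPKM in irradiated libraries. The lowest irradiated library held more than the highest control, and the means of 2.00 ± 0.668 and 6.66 ± 0.858 FPKM differed 3.33-fold, more than those of any other of the 9 genes. The log2 fold change was 1.37 (SE 0.19, limma adjusted p = 0.0108), and 1.72 with a pseudocount of 0.1. The call was lost without control 1 (limma adjusted p = 0.0691) and without irradiated library 1, 2 or 3 (0.112, 0.118 and 0.0712). With the sample number as a block it was lost as well (0.0505), and it was kept after both other scalings.

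**Figure D2:**
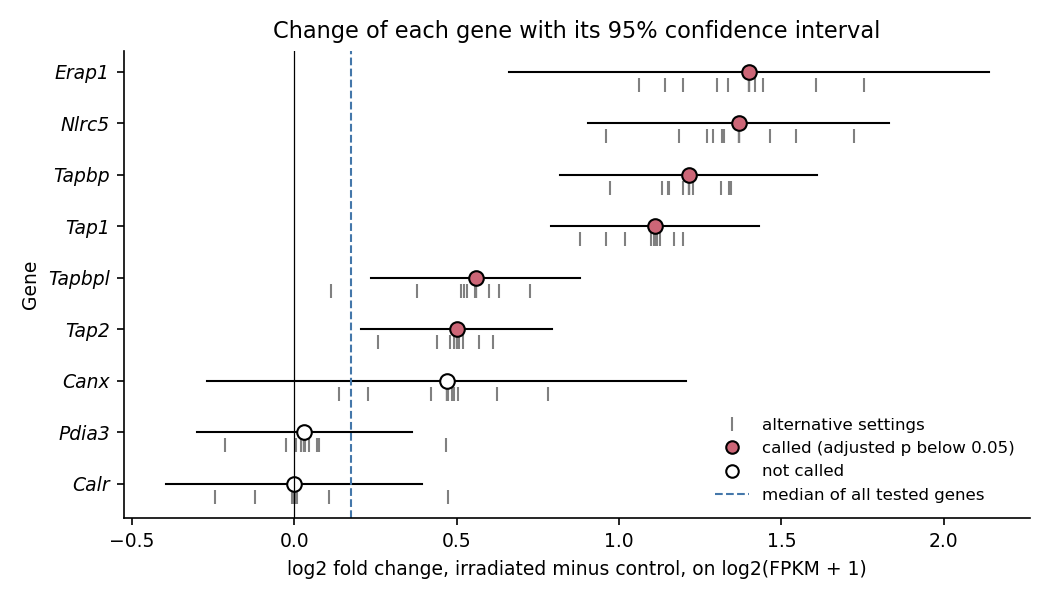
Log2 fold change of each gene, irradiated minus control on log2(FPKM + 1), with its 95% confidence interval (line), filled where called; grey ticks show the value under each alternative setting and the dashed line the median of all tested genes (0.17). Erap1, Nlrc5, Tapbp and Tap1 stay above 0.88 in all 14 settings, while the ticks of Calr and Pdia3 fall on both sides of 0.

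Calr, the lectin chaperone calreticulin, measured 1013, 741 and 886 FPKM in controls and 878, 869 and 870 FPKM in irradiated libraries. The irradiated values lay within the range of the controls. The log2 fold change was 0.00 with a 95% confidence interval from -0.40 to 0.39 (limma adjusted p = 0.995). Pdia3, the oxidoreductase ERp57, measured 561, 486 and 538 FPKM in controls and 547, 511 and 560 FPKM in irradiated libraries. Its log2 fold change was 0.03 (interval -0.30 to 0.36, limma adjusted p = 0.875). The direction of both turned with the scaling: Calr went to 0.47 after quantile normalization and -0.25 after trimmed-mean scaling, and Pdia3 to 0.47 and -0.21, none of them called.

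Canx, the membrane-bound lectin chaperone calnexin, was widely spread among the controls. It measured 110, 66.9 and 164 FPKM in controls and 145, 142 and 158 FPKM in irradiated libraries. Control 3 was the highest of all 6 libraries and control 2 the lowest. The log2 fold change was 0.47 (interval -0.27 to 1.21, limma adjusted p = 0.283), and without control 3 it was 0.78 and the gene was called higher (limma adjusted p = 0.00602), in a setting that called 69.1% of all tested genes. Control 3 also stood apart in 2 ER stress genes picked after their values were seen. Herpud1, a factor of ER-associated degradation, measured 33.3, 24.03 and 111 FPKM in controls and 36.0 to 38.2 in irradiated cells. Ddit3, the stress transcription factor CHOP, measured 26.0, 29.8 and 111 FPKM in controls and 50.4 to 59.3 in irradiated cells. Other ER stress genes, also picked after their values were seen, went the other way. Control 3 was the lowest control for Manf (491, 468 and 284 FPKM in controls) and Creld2 (137, 128 and 76.7 FPKM). The part of these genes in the Canx values was not tested.

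The ratios among the chaperones and between them and the transporter were read within libraries as well. Pdia3 was 0.554, 0.656 and 0.606 of the Calr level in controls and 0.624, 0.588 and 0.643 in irradiated libraries (log2 difference 0.03, exact permutation p = 0.7). Calr was 9.20, 11.1 and 5.39 times Canx in controls and 6.06, 6.14 and 5.49 times in irradiated libraries, and control 3 lay below every irradiated library (exact permutation p = 0.4). The Tap1 level was 0.0118, 0.0154 and 0.0131 of that of Calr in controls and 0.0297, 0.0345 and 0.0267 in irradiated libraries. The Tap1 share of Calr was thus 2.26-fold higher in irradiated cells with no overlap (log2 difference 1.18, exact permutation p = 0.1, the smallest possible, adjusted p = 0.3 over 6 pairs), and after quantile normalization the log2 difference was 0.54.

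**Figure D3:**
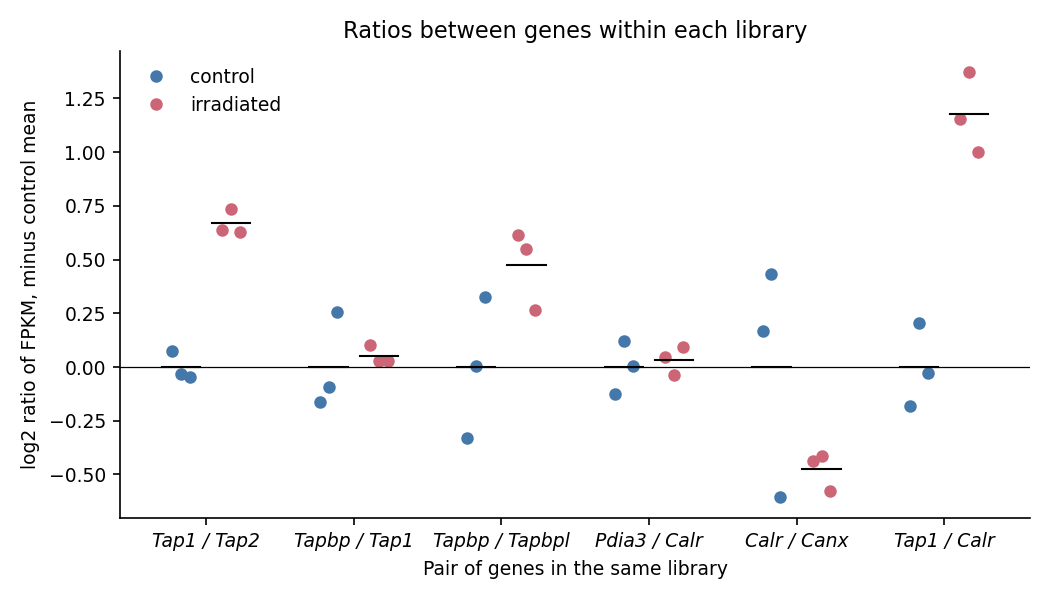
Log2 ratio of the FPKM of each pair of genes in the same library, minus the control mean of that pair; points are libraries 1 to 3 from left to right and bars are group means. The groups separate for Tap1 / Tap2 (difference 0.67) and Tap1 / Calr (1.18), and overlap for the other 4 pairs.

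Relative to the median change of all tested genes, the log2 fold changes were 1.23 for Erap1, 1.19 for Nlrc5, 1.04 for Tapbp, 0.94 for Tap1, 0.38 for Tapbpl, 0.33 for Tap2 and 0.30 for Canx, against -0.14 for Pdia3 and -0.18 for Calr. Among the log2 fold changes of all tested genes, Erap1 and Nlrc5 stood at percentiles 97.5 and 97.3, Tapbp and Tap1 at 96.3 and 95.1, and Tapbpl and Tap2 at 77.6 and 73.8. Within the irradiated group, library 3 was the lowest in 5 of the 6 called genes, and Tapbpl was lowest in library 1. Library 3 was also the lowest irradiated library for the interferon-pathway factor Irf7 (120, 150 and 70.3 FPKM), and library 2 the highest.

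**Figure D4:**
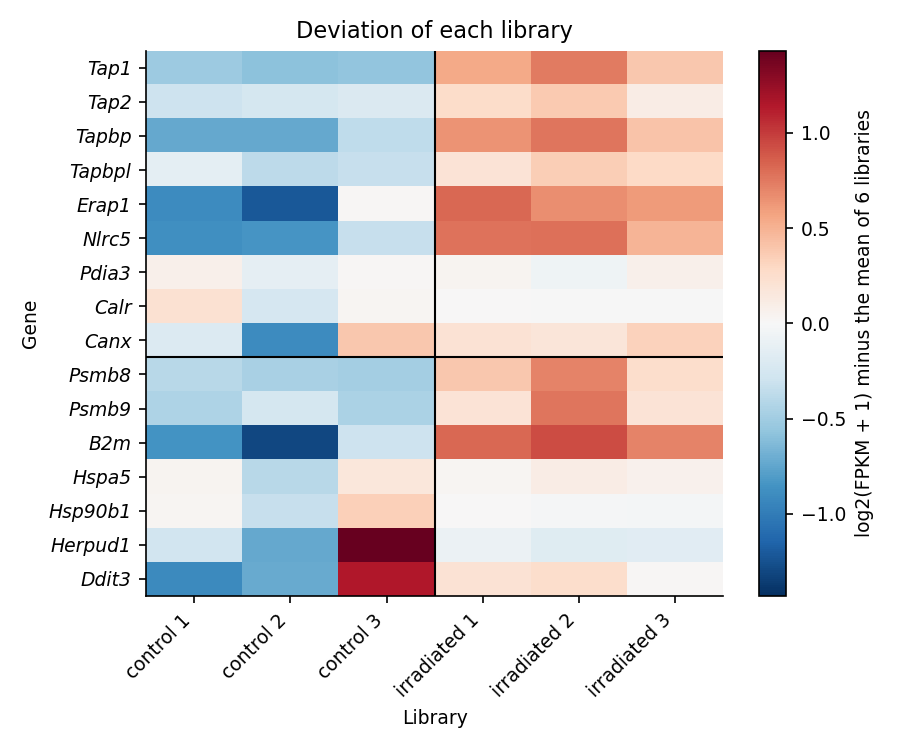
Heat map of log2(FPKM + 1) of each gene in each library minus that gene's mean over the 6 libraries (red above, blue below), with the 9 loading genes above the horizontal line and 7 genes of the class I pathway and ER stress below it. Tap1, Tapbp and Nlrc5 are below their mean in all controls and above it in all irradiated libraries, and control 3 holds the highest Herpud1 and Ddit3 values.

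The genes most like Tap1 over the 6 libraries, by Pearson correlation of log2(FPKM + 1), included the guanylate-binding proteins Gbp5 (r = 0.999) and Gbp6 (r = 0.999), with log2 fold changes of 2.31 and 1.85. Both passed the filter only through the irradiated libraries. With a pseudocount of 0.1 their log2 fold changes were 4.74 and 4.59. The genes most like Nlrc5 were the ubiquitin ligase Rnf213, the RNA helicase Ddx19b and the histone methyltransferase Kmt2d (r = 0.999 each). Rnf213 and Kmt2d were called higher (log2 fold changes 3.07 and 1.17, limma adjusted p = 0.00601 and 0.0111), and Ddx19b measured 0.35 (limma adjusted p = 0.0899) and -0.092 after quantile normalization. The 6 libraries form 2 groups, and the correlations are given as a description.

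Among genes that act before the transporter, the immunoproteasome subunits next to Tap1 were called higher and most others were not called. Of 5 genes of the immunoproteasome and its activator PA28, 2 were called higher, where 9.24% of all tested genes were. Psmb8, a catalytic subunit encoded next to Tap1, went up from 70.6 ± 2.23 to 133 ± 22.3 FPKM (0.90 on the log2 scale, limma adjusted p = 0.0195), and Psmb9, which shares the 225 bases shown above with Tap1, measured 23.5, 26.8 and 23.3 FPKM in controls and 37.0, 55.3 and 36.9 FPKM in irradiated libraries (0.77, limma adjusted p = 0.0464). Both calls were lost after trimmed-mean scaling, where 0 of the 5 were called. Of 5 standard proteasome genes, limma called 0, and 2 (a share near the 38.3% of all genes) reached an unadjusted p below 0.05, the activators Psme4 and Psme3 (log2 fold changes 0.47 and 0.49, adjusted p = 0.0615 and 0.0791). Among 9 cytosolic and endosomal peptidases, 1 was called higher, a share near the 9.24% of all tested genes. It was the oligopeptidase Nln (0.66, limma adjusted p = 0.0464), a call lost after trimmed-mean scaling. Lnpep, which encodes the endosomal aminopeptidase IRAP and is a relative of Erap1, measured 1.28, 1.04 and 5.81 FPKM in controls and 8.40 to 8.81 in irradiated cells (1.61, limma adjusted p = 0.0583).

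The list of class I chains also holds B2m and the class I-like genes Mr1 and Cd1d1. Of its 13 tested genes, 9 were called higher, where 9.24% of all tested genes were. The median log2 fold change of the 13 was 0.89, against 0.17 for all tested genes. The 2 with the smallest p were the nonclassical genes H2-T24 (0.25 to 1.49 FPKM, limma adjusted p = 0.00521) and H2-T10 (2.26 to 7.48 FPKM, 0.00819). H2-T24 was below 1 FPKM in all controls and passed the filter only through the irradiated libraries, so its call supports nothing about the list. The classical chains H2-K1 and H2-D1 were also called higher (log2 fold changes 0.86 and 0.63, limma adjusted p = 0.0242 and 0.0410). Class I heavy chains are close in sequence, and reads can be assigned to any copy. After trimmed-mean scaling 6 of 13 were called, and without control 1, 2 or 3 the counts were 1, 7 and 12. Over the whole table, 617 of 11103 genes were called higher after trimmed-mean scaling. Without control 1, 2 or 3 the whole-table numbers were 164 of 11060, 443 of 11055 and 5067 of 11053. Without irradiated library 1, 2 or 3, 0, 0 and 1 of 12 were called, where 0.516%, 0.599% and 0.911% of all tested genes were.

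The DNA-bound partners of NLRC5 were not called, and most interferon-pathway factors were called higher. Of 8 genes of the RFX, NF-Y and CREB/ATF factors that recruit NLRC5 to DNA, limma called 0, while 3 had an unadjusted p below 0.05, a share near the 38.3% of all genes. Nfya measured 10.5 and 16.2 FPKM in the group means (0.61, limma adjusted p = 0.0701), and Nfyc 42.3 and 31.4 FPKM (-0.41, limma adjusted p = 0.0755). Rfx5, the remaining one of the 3, measured 2.19, 1.40 and 5.59 FPKM in controls and 7.35, 7.64 and 6.24 in irradiated libraries (1.12, limma adjusted p = 0.0769). Of 7 interferon-pathway transcription factors, 5 were called higher, where 9.24% of all tested genes were. All 7 had a positive log2 fold change (0.78 to 5.36). Irf9, the DNA-binding subunit of the interferon-activated ISGF3 complex, rose from 2.59 ± 0.27 to 25.9 ± 4.20 FPKM (2.90, limma adjusted p = 0.000526), and Irf7 by 5.36 on the log2 scale (limma adjusted p = 0.000758). The class II transactivator Ciita, a relative of Nlrc5, stayed at 0.11 FPKM or less in every library and was not tested. Of 10 class II genes, 3 were tested and 1 was called higher, where 9.24% of all tested genes were. It was Cd74, the invariant chain (1.86 to 5.55 FPKM, limma adjusted p = 0.0489), a call lost after trimmed-mean scaling. Cd74 was at 0.87 FPKM in control 2 and passed the filter only with the irradiated libraries, so its call supports nothing about the list. H2-DMb1 measured 0.47 (limma adjusted p = 0.139).

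Of 16 other ER chaperone and unfolded protein response genes, limma called 0 higher and 1 lower, where 9.24% and 2.77% of all genes were called, and 3 had an unadjusted p below 0.05. Their median log2 fold change was -0.20. Dnajc3, a co-chaperone that inhibits the kinase PERK, fell from 10.4 ± 0.276 to 7.06 ± 0.566 FPKM (log2 fold change -0.50, limma adjusted p = 0.0469), and Dnajb9, another co-chaperone, measured 9.45, 4.19 and 18.3 FPKM in controls and 22.1, 27.9 and 24.8 in irradiated libraries (1.35, limma adjusted p = 0.08). Of 8 tested enzymes of the calnexin cycle list, limma called 0, while 3 had an unadjusted p below 0.05, again near the share of all genes. Man1b1 and Uggt1 measured 0.45 and 0.71 (limma adjusted p = 0.0877 and 0.103). Among 6 tested relatives of the 9 genes, the NLR family members Nod2 (1.79 to 6.18 FPKM, limma adjusted p = 0.0115) and Nlrc3 (0.243 to 1.26 FPKM, limma adjusted p = 0.0179) were called higher, and 4 were not called. Nlrc3 was below 1 FPKM in all controls and entered the test only through the irradiated libraries.

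These calls among the related genes varied with the libraries included. Irf9 and Irf7 were called in all 14 alternatives. The calls of Psmb8, Psmb9, Nln, Cd74, Dnajc3 and Nod2 ended without control 1 and without irradiated library 1, 2 or 3, and those of Psmb9, Nln, Cd74 and Dnajc3 also without control 2. That of H2-T10 ended without control 1 or irradiated library 1 or 2, and that of Nlrc3 without control 1. Without control 1, 2 or 3, 5, 14 and 43 of the 80 related genes tested were called higher by limma, against 20 with all libraries. Over the whole table these settings called 164 of 11060, 443 of 11055 and 5067 of 11053 genes higher, against 1026 of 11103. Without irradiated library 1, 2 or 3, 3, 4 and 5 of 78 related genes were called higher. There 0.516%, 0.599% and 0.911% of all tested genes were called in either direction.

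**Figure D5:**
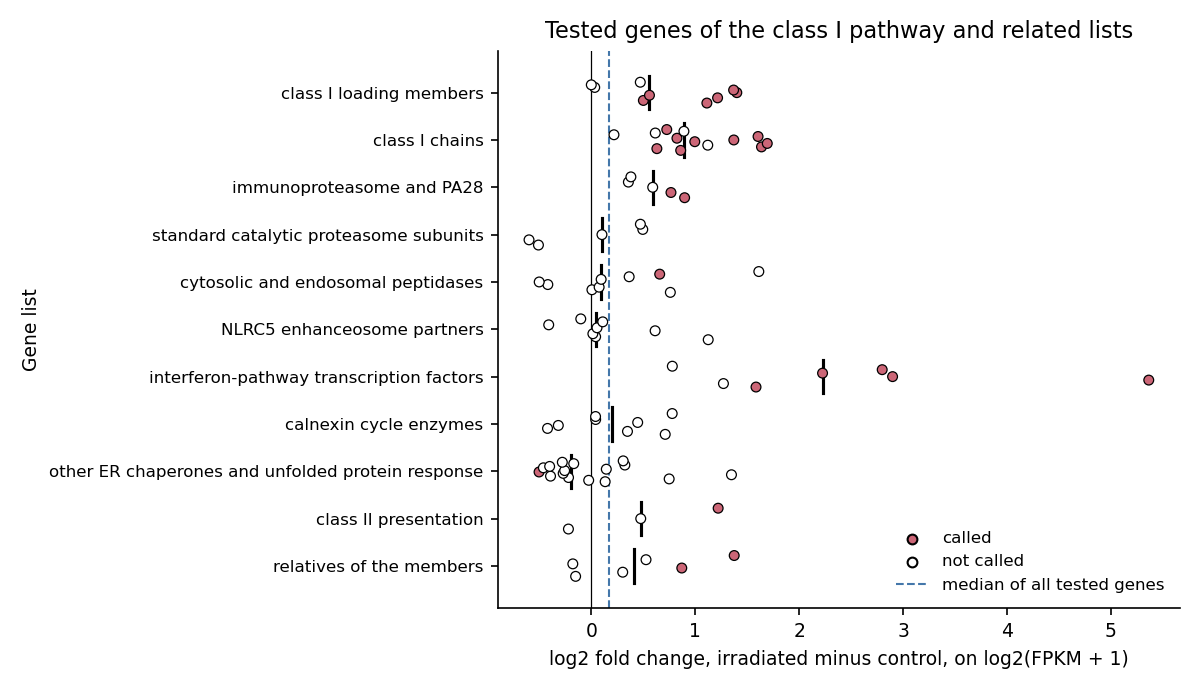
Log2 fold change, irradiated minus control on log2(FPKM + 1), of every tested gene in the 9 loading genes and 10 related lists; red points were called at a limma adjusted p below 0.05, black bars are list medians and the dashed line is the median of all tested genes. The interferon-pathway factors have the highest median (2.22), and the median of the ER chaperone list is below 0 (-0.20), with genes on both sides of 0.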

How the data were processed

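RNA sequencing of 6 SCC7 samples (3 control, 3 irradiated) was used from a table of 17030 genes. The values are FPKM rounded to 2 decimals, made by the authors, per the file headers; HISAT and GRCm38.p6 are named in the submitters' processing notes, but no counting tool or annotation is named in what was used here. FPKM holds no read numbers, so the depth is unknown and no count model was used. The 11103 genes that reached 1 FPKM in 3 or more samples were tested with limma 3.58.1 in R 4.3.3 on log2(FPKM + 1), with a model of 2 groups and with trend and robust options. P-values were adjusted over all genes tested by Benjamini-Hochberg. The log2(FPKM + 1) scale understates changes of low genes. Limma assumes 1 variance for both groups, which differed here, so its p-values are approximate. The procedure was tested on simulated data with the same spread in both groups, so that test does not cover the unequal spread found here. Ratios were compared by two-sided exact permutation over samples.

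The 9 genes and the other lists were chosen with earlier results of these data known. Named genes are the 9, the 2 with the smallest p of each list, and the 3 most correlated with Tap1 and with Nlrc5, predicted genes left out; 1 gene that this rule names is not reported here, and others named were chosen after their values were seen. Alternatives were quantile normalization, trimmed-mean scaling (30% of log ratios and 5% of levels trimmed at each end), no filter, a filter at 5 FPKM, a pseudocount of 0.1, no trend and robust options, array weights per group, the sample number as a block and leaving out each sample. Coordinates are 1-based from RefSeq.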

Additional observations from a re-analysis of the deposited data

How the results depend on the processing

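All 6 called genes kept a positive log2 fold change in every alternative that tested them, and calls were lost as given above. Genes called higher among the 9 numbered 5 after quantile normalization, 4 each after trimmed-mean scaling, no filter, a filter at 5 FPKM, a pseudocount of 0.1 and array weights per group, and 6 without trend and robust options; leaving out 1 library gave 0 to 7, with 7 (the 6 and Canx) without control 3, and 0 were called lower in these settings. With the replicate number as a block, 1 of the 9 was called (Tap1), 260 genes of the whole table higher and 40 lower. Of the listed genes, 7 were called higher and 0 lower with this block. Deviations of same-numbered samples correlated at -0.11, 0.02 and -0.16. With 3 samples per group, these values cannot decide whether samples with the same number were paired. Over the whole table, against 1026 higher and 308 lower, quantile normalization called 663 and 564, trimmed-mean scaling 617 and 586, the filter at 5 FPKM 506 higher and array weights 489 lower. Higher calls were thus 76.9%, 54% and 51.3% of all calls without scaling and with these 2 scalings, as the median log2 fold change moved from 0.17 to -0.01 and -0.04. Leaving out 1 library gave 46 to 5067 higher and 10 to 2571 lower; both maxima came without control 3. Of the 80 listed genes tested, 20 were called higher and 1 lower; 12 were higher after trimmed-mean scaling and 13 with the filter at 5 FPKM, 2 were lower after quantile normalization and 3 after trimmed-mean scaling, and 0 lower with no filter, the filter at 5 FPKM, a pseudocount of 0.1 or array weights. Leaving out 1 library gave 3 to 43 higher and 0 to 15 lower. Calr changed sign after quantile normalization (0.47) and without control 1 (0.11), control 3 (0.01), irradiated library 2 (0.0017) or 3 (0.00062), and Pdia3 after trimmed-mean scaling (-0.21) and without control 2 (-0.026); leaving out 1 library gave -0.12 to 0.11 for Calr and -0.026 to 0.076 for Pdia3. Ddx19b was -0.092 after quantile normalization. Quantile normalization moved the ratio differences to 0.39 for Tap1 to Tap2, 0.35 for Tapbp to Tap1, 1.20 for Tapbp to Tapbpl and 0.54 for Tap1 to Calr. Depth is unknown, so the precision of the low genes Tapbpl and Nlrc5 rests on the 3 samples alone.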
